A study of Macaca fascicularis with 605 samples.

Results

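Claudins and connexins were taken as every gene of the expression table whose symbol is CLDN, GJA, GJB, GJC or GJD followed by a number, which gave 42 members (24 claudins and 18 connexins) of 26018 genes. Claudins are the membrane proteins that form the strands of tight junctions, the belts that seal an epithelium and set which ions pass between its cells. Connexins assemble into gap junction channels, which join the cytoplasm of neighbouring cells and let ions and small molecules through. Trophectoderm, the outer layer of the blastocyst, is a sealed epithelium, and its tight junctions are needed for the blastocyst cavity to fill.

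The cells came from the cynomolgus monkey, Macaca fascicularis, and each was profiled alone by SC3-seq, a method that sequences the 3′ ends of amplified cDNA. Because a tag marks the end of a transcript, a level here is a read count scaled to a common library total (RPM) and is not divided by gene length. The 540 embryo cells covered embryonic day (E) 06 to E20: 24 cells at E06, 30 at E07, 86 at E08, 16 at E09, 39 at E14, 56 at E17 and 5 at E20, with a further 20.9% of the cells from E13 and 31.7% from E16. Embryos of E06 to E09, before implantation, were dissociated whole. From E13 on, only a hand-dissected piece with epiblast, amnion, hypoblast and yolk sac endoderm was used, so stage and dissection cannot be told apart. Embryonic stem cells (ESCs) came from 3 lines: CMK6 (13 cells) and CMK9 (7 cells), grown on mouse feeders with bFGF at 4 ng/ml and LIF at 1000 U/ml, and 656BTAG (8 cells), grown in AITS medium with bFGF at 20 ng/ml and the inhibitor IWR1. Of the CMK6 cells, 1 carries a description that names CMK9. Primordial germ cell-like cells (PGCLCs) were sorted as BTAG-positive on day 8 from 656BTAG aggregates given 200 ng/ml of BMP4, 100 ng/ml of SCF, 50 ng/ml of EGF, 1000 U/ml of LIF and 10 µM of Y27632, in GMEM with KSR (GK15, 6 cells) or Advanced RPMI with B27 (aRB27, 6 cells). The PGCLCs thus stand for 1 line. The 25 gonadal cells, which the study assigned to germ cells by qPCR, came from E36 (5 cells), E43 (6), E47 (1), E50 (5), E51 (7) and E55 (1), and their titles mark E36, E47 and E55 with m and the other days with f.

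Recovered read totals ranged from 150294 to 9716680 per cell with a median of 1965198, and the medians of embryo cells before implantation (2029756), embryo cells after it (2019094), ESCs (1466511), PGCLCs (1728479) and gonadal cells (1749643) lay close together. The labels name no animal or culture. Levels were therefore averaged over the cells of a line, medium or day (5 cells or more), these means served as the samples of each test, and the p-values measure only the spread between them. The embryo cells were sorted into 4 classes by a level of 50 RPM or more of GATA3 (190 cells), GATA4 (180), SOX2 (230) or COL3A1 (92). These gates are ranges of 1 gene's level, not cell types. Of the 540 cells 53 passed none, 308 passed 1, 26 passed 3 and the others passed a pair of gates, and 92, 85, 35 and 18 cells lay within 25 to 100 RPM of the 4 gate genes.

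The labels were compared with marker lists. Each gate's own gene, GATA3, GATA4, SOX2 or COL3A1, is among the markers of its list, so that marker passed by construction. In the SOX2 gate, 8 of 8 epiblast markers had a median of at least 10 RPM both before and after implantation. In the GATA3 gate, 8 of 12 trophectoderm markers did so before implantation but only 4 of 12 after it. In the GATA4 gate the numbers for hypoblast and endoderm markers were 7 of 11 before and 3 of 11 after, and in the COL3A1 gate 12 of 12 mesenchyme markers reached that level after implantation. In the gonadal cells 10 of 10 germ cell markers did. However, 10 of the 25 gonadal cells also held at least 3 gonadal soma markers at 50 RPM or more. The 12 PGCLCs had 5 of 10 germ cell markers at that median, with DDX4, MAEL and PIWIL2 at 0 in all of them, and the 28 ESCs had 6 of 8 epiblast markers.

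Of the 42 members, 25 (15 claudins and 10 connexins, 59.5%) reached 10 RPM in at least 5 cells, against 64.3% of all genes. Most detections came from 5 genes: GJA1, which encodes the widely expressed gap junction protein connexin 43, reached 10 RPM in 572 cells, CLDN6, a claudin typical of pluripotent and embryonic epithelia, in 518, CLDN12 in 485, CLDN22 in 395 and GJC1, which encodes connexin 45, in 324. CLDN4 (24.96% of all cells) and CLDN3 (23.3%), both known from tight epithelia, came next, then CLDN11 (81 cells), CLDN10 (72), CLDN1 (65), CLDN19 (58), CLDN7 (45) and CLDN23 (35). GJA4 reached 10 RPM in 24 cells, CLDN15 in 15, GJA5 in 11, GJD3 in 10, CLDN34 in 9, GJA3 in 8, GJD2 and GJB6 in 7 each, CLDN2 in 6 and GJA9 and CLDN9 in 5 each. Just outside the threshold stood CLDN5, the claudin of endothelium, with 4 cells. GJB5 and CLDN16 had 3 such cells each, and GJA10, GJB7 and GJB2 had 1 each. CLDN18, CLDN14, CLDN8, CLDN17, CLDN20, CLDN24, GJD4 and CLDN25 had none, and CLDN8 was listed at 0 in every cell.

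Reads of overlapping or adjoining genes limit some of these members, because the counting is not stated to use strand. CLDN22 lies beside WWC2: WWC2 reached 10 RPM in 62.5% of the 395 CLDN22 cells but in 18.1% of the other cells, and only 12 of the 395 had no WWC2 read. CLDN22 levels are therefore uncertain. For CLDN12, which overlaps CDK14 in the RefSeq annotation, the shares were 47% and 40%, and 182 of the 485 CLDN12 cells had no CDK14 read. For CLDN10, which overlaps DZIP1, they were 86.1% and 60%. CLDN4 overlaps METTL27 in the same annotation, and METTL27 was not analysed here. CLDN2 overlaps MORC4, with shares of 66.7% and 30.1%.

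In embryo cells the connexin signal was mostly that of a single gene. GJA1 made up 97.7% of the summed connexin RPM at E06 to E09 and 94.1% at E13 to E20. Its mean was 694 RPM at E06, 983 at E07, 1049 at E08, 1140 at E09, 983 at E13, 1194 at E14, 742 at E16, 558 at E17 and 364 at E20. All cells before implantation were at 10 RPM or more, and 13 of all 540 embryo cells were below it. GJC1 was lower and did not follow the same course: 6.4 RPM at E06, 19.9, 24.02 and 23.5 at E07 to E09, then 36.6, 10.9, 56.02, 38.04 and 82.7 at E13, E14, E16, E17 and E20. The mean of E20 rests on 5 cells.

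The claudins were spread over more genes, and their mixture differed between early and late days. The summed claudin level was 291.7 ± 199.5 RPM (SD over cells) at E06 to E09 and 246.0 ± 207.6 RPM (SD over 384 cells) at E13 to E20. CLDN4 made up 29.6% of it before implantation and 3.09% after, and its share was highest at E06, with 47.9%. The CLDN4 means were 115.8, 93.3, 71.8 and 107.2 RPM at E06 to E09, and 7.4, 4.8, 8.6, 6.7 and 11.9 RPM at E13, E14, E16, E17 and E20. The early and late days did not overlap. At E06 all 24 cells held 10 RPM or more of CLDN4, at E06 to E09 together 94 did, and later 54 of 384. CLDN6 was level by comparison, with day means from 40.5 RPM (E08) to 86.8 RPM (E14). CLDN12 day means ran from 21.5 RPM (E06) to 73.8 RPM (E14).

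**Figure D1:**
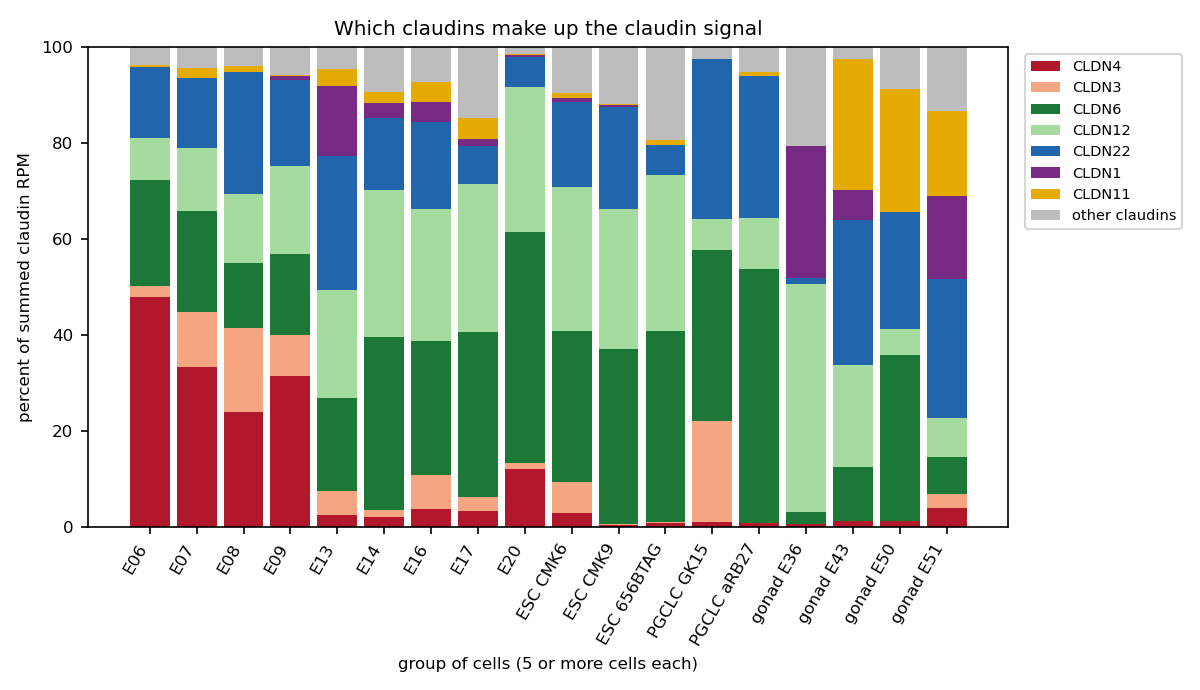
Share of the summed claudin RPM, in percent, held by CLDN4, CLDN3, CLDN6, CLDN12, CLDN22, CLDN1, CLDN11 and all other claudins in the 18 groups with at least 5 cells, as stacked bars. CLDN4 holds 47.9% at E06, and CLDN11 holds a visible part in the gonadal cells.

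Several rarer claudins were detected in unequal shares of the cells before and after implantation. CLDN10, a claudin that forms ion-selective pores, was at 10 RPM or more in 0 cells before implantation, which allows a share of up to 1.92%, and in 61 of 384 after it. CLDN1, a barrier claudin best known from skin, reached it in 1.92% of the cells before and 15.1% after, CLDN19 in 1.92% and 11.98%, and CLDN11 in 6.41% and 16.1%. CLDN7 and CLDN3 went the other way, CLDN7 with 18.6% of the cells before and 4.17% after and CLDN3 with 42.3% and 17.97%. CLDN1 was concentrated on 1 day: its day mean was 42.6 RPM at E13 and at most 10.1 RPM on any other, and the cell with the highest CLDN1 level of the series, 815.36 RPM, was an E13 cell. Among connexins, GJD2, known from neurons, was at 10 RPM in 7 embryo cells and GJD3 in 10, all of them after implantation. GJB6 reached it in 6 early cells and 1 late cell.

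The gate comparisons asked which members differ between a class and the other cells of the same day, with day as a block. In the GATA3 gate, a range that holds trophectoderm cells before implantation, CLDN3 and CLDN4 were higher. CLDN3 averaged 43.4 ± 31.02 RPM (SD, n = 7 days) in the gate and 6.45 ± 6.97 RPM outside it. The in-gate means were 83.2, 79.3 and 54.5 RPM at E07, E08 and E09 and 35.1, 7.29, 38.2 and 6.28 RPM at E13, E14, E16 and E17, against 2.81, 22.05, 3.31, 4.84, 2.98, 3.33 and 5.86 RPM in the other cells. CLDN3 was thus higher in the gate on 7 of 7 days, by 2.42 ± 0.47 (SE) on the log2(RPM + 1) scale (limma with day as block, Benjamini-Hochberg adjusted p = 0.0256). For CLDN4 the means were 210.6, 121.4, 210, 19.9, 15.2, 15.3 and 4.14 RPM in the gate and 25.4, 14.8, 4.53, 1.76, 2.47, 4.17 and 7.2 RPM outside on the same days. Only E17 had the lower level in the gate. The log2 difference of CLDN4 was 2.48 ± 0.53 (limma adjusted p = 0.0338). These were 2 of 12 members tested (10 claudins and 2 connexins), both higher, against 2.57% of all genes tested (1.34% higher and 1.23% lower). The median log2 difference was 0.364 over the 12 members and -0.023 over all genes.

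With each day left out in turn, the log2 difference ran from 2.07 to 2.803 for CLDN3 and from 2.02 to 3.003 for CLDN4, so the direction held while the adjusted p crossed the threshold. CLDN3 missed the threshold without E07 (limma adjusted p = 0.0649), E08 (0.0641), E13 (0.0645) or E16 (0.0653), and CLDN4 without E07 (0.0927), E08 (0.0957), E13 (0.0878), E14 (0.0682) or E16 (0.0577). Without the day block the adjusted p was 0.244 for CLDN3 and 0.361 for CLDN4, and with edgeR it was 0.100 and 0.107. Cells with the same title code and day can be compared too: CLDN3 was higher in the gate in 8 of 9 such strata, and CLDN4 in 8 of 9. GJC1 averaged 47.1 ± 23.2 RPM in the gate and 22.5 ± 14.3 RPM outside (limma adjusted p = 0.0528). The difference of CLDN7 did not pass either (8.97 and 2.44 RPM, limma adjusted p = 0.150). GJA1 means were 969 ± 368 and 964 ± 252 RPM (log2 difference -0.04, limma adjusted p = 0.921). Among the 35 cells of E06 to E09 that passed the GATA3 gate alone, CLDN4 reached 10 RPM in 35, CLDN3 in 31 and CLDN7 in 20.

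The GATA4 gate had more GJC1 and less CLDN4 than the other cells. It held 7 of 11 hypoblast and endoderm markers at a median of 10 RPM or more before implantation. After implantation it held 3 of 11 of them and 6 of 12 mesenchyme markers at that median. GJC1 averaged 49.1 ± 22.2 RPM in the gate and 20.7 ± 12.99 RPM outside it (SD, n = 7 days). By day it was 28.3, 30.4, 31.1, 60.5, 49.8, 90.4 and 53.04 RPM in the gate at E07, E08, E09, E13, E14, E16 and E17, and 16.8, 19.7, 18.9, 8.5, 5.21, 40.6 and 35.2 RPM outside. GJC1 was higher in the gate on each of the 7 days, most at E13 and E14 (log2 difference 1.35 ± 0.33, limma adjusted p = 0.0415). CLDN4 averaged 24.6 ± 33.8 RPM in the gate and 53.9 ± 56.1 RPM outside, with 75.2, 14.6, 71.9, 1.11, 4.57, 4.44 and 0.442 RPM against 99.9, 111.1, 128.4, 14.7, 4.79, 10.5 and 7.84 RPM. It was lower in the gate on 7 of 7 days, though at E14 by little (log2 difference -1.53 ± 0.39, limma adjusted p = 0.0457). With log2 values averaged over cells the CLDN4 difference shrank to -0.5 (limma adjusted p = 0.419), and with a pseudocount of 10 RPM to -0.84 (0.0665). The 2 called members were among 10 tested, against 5.92% of all genes (3.13% higher and 2.8% lower), with a median log2 difference of 0.041 over the 10 and -0.032 over all genes.

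**Figure D2:**
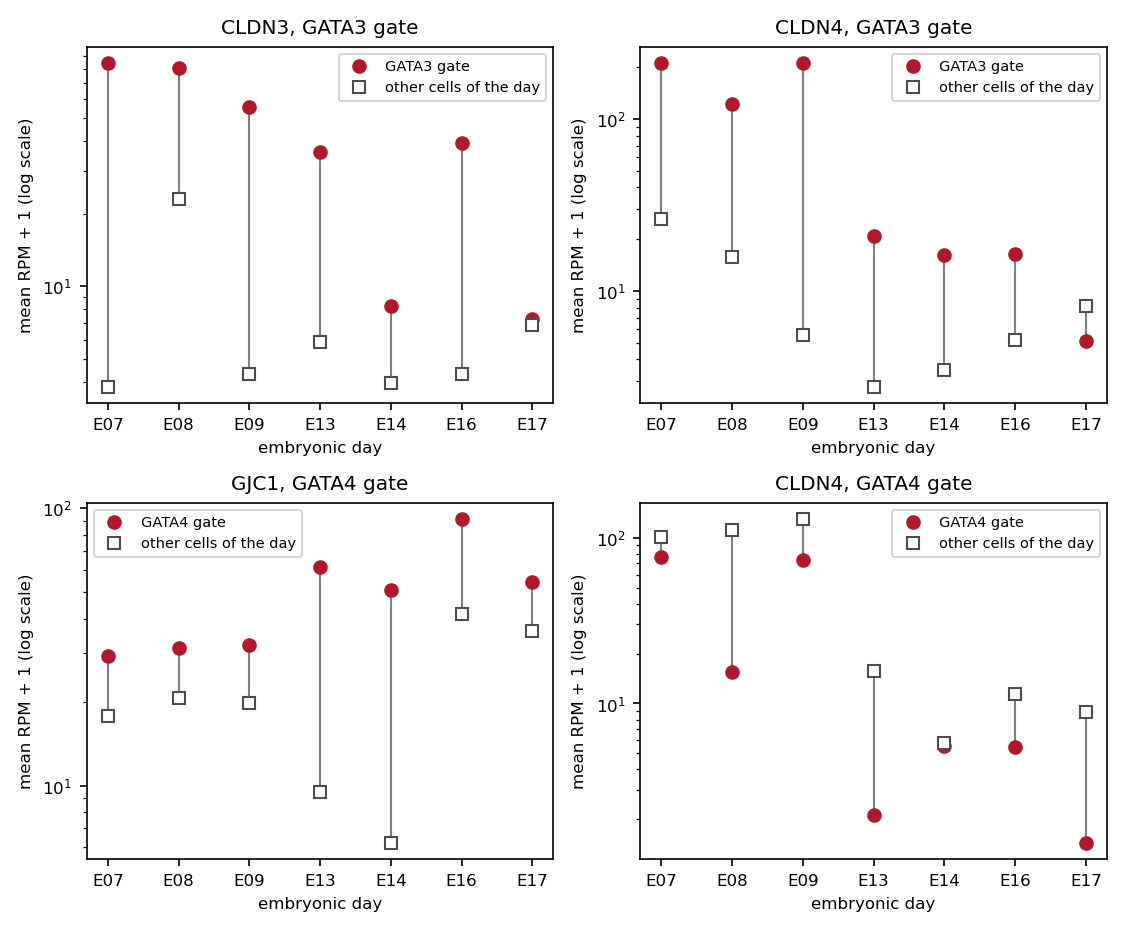
Mean level by embryonic day, as RPM + 1 on a log axis, of CLDN3 and CLDN4 in the GATA3 gate and of GJC1 and CLDN4 in the GATA4 gate (filled circles) and in the other cells of the day (open squares). The filled circles of CLDN3 lie above the squares on all 7 days, and those of CLDN4 in the GATA4 gate lie below them.

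For GJC1 the GATA4 gate call was lost when E07 (limma adjusted p = 0.0704), E08 (0.0685), E09 (0.0748), E13 (0.0978), E14 (0.0549), E16 (0.073) or E17 (0.0514) was left out. For CLDN4 it was lost without E07 (0.0674), E08 (0.131), E09 (0.0893), E13 (0.106), E16 (0.0678) or E17 (0.0875). Without the day block the adjusted p was 0.161 for GJC1 and 0.576 for CLDN4, and with edgeR it was 0.091 and 0.150. Within title code and day GJC1 was higher in 8 of 9 strata and CLDN4 lower in 6 of 9. GJA1 means were 1128 ± 424 RPM in the GATA4 gate and 867 ± 192 RPM outside (limma adjusted p = 0.272). CLDN6 means were 54.5 and 69.9 RPM (limma adjusted p = 0.238).

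In the SOX2 gate, which held the epiblast markers, 0 of 9 members tested passed at the adjusted threshold, against 7.68% of all genes called by limma (3.28% higher and 4.39% lower). The unadjusted limma p was under 0.05 for 4 of the 9 members and for 2845 of the 10537 genes tested. With edgeR, 0 members were called too. GJC1 came nearest, with 13.7 ± 6.77 RPM in the gate and 40.8 ± 24.3 RPM outside (log2 difference -1.26 ± 0.38, lower on 6 of 7 days, limma adjusted p = 0.0670). CLDN3 means were 7.44 and 34.2 RPM (limma adjusted p = 0.0948), and CLDN4 means were 26.4 and 88.5 RPM (limma adjusted p = 0.125). All early and all late cells of the gate held GJA1 at 10 RPM or more. The gate held 42.6% of the embryo cells. Of the embryo cells at 10 RPM or more, it held 45 of 61 for CLDN10 and 37 of 49 for CLDN19, but 23 of 61 for CLDN1 and 9 of 45 for CLDN7.

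The COL3A1 gate, with mesenchyme markers, had 5 or more cells only on E13 and E16, with 2 cells at E14, 2 at E17 and 4 at E20, and 0 of the cells before implantation passed it, which allows a share of up to 1.92%. With 2 days, limma called 0 of 9 members and 0.0549% of all genes (0.0439% higher and 0.011% lower), and edgeR called 0 genes. The unadjusted limma p was under 0.05 for 1 of the 9 members and for 1340 of the 9106 genes tested. CLDN6 was 8.27 RPM at E13 and 42.3 RPM at E16 in the gate, and 79.3 and 74.8 RPM outside it (limma adjusted p = 0.299). CLDN11, whose protein forms the tight junctions of myelin and of Sertoli cells, was 22.7 and 15.9 RPM in the gate and 3.80 and 7.60 RPM outside (limma adjusted p = 0.339). GJA1 was 369 and 687 RPM in the gate and 1270 and 763 RPM outside (limma adjusted p = 0.373). With 2 days none of these differences passed. Within title code and day, where 5 strata could be formed, CLDN6 was higher in the gate in 2 and lower in 3, GJA1 likewise in 2 and 3, and CLDN11 was higher in 3 and lower in 2, so no direction held across them. Of the 9 embryo cells with GJA5, a connexin of arterial endothelium, at 10 RPM, 7 were in this gate.

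The next comparisons set the days after implantation against those before it within a gate. In the GATA3 gate, CLDN4, CLDN7 and CLDN3 were lower after implantation and CLDN10 and CLDN1 were higher. CLDN4 was 210.6, 121.4 and 210 RPM at E07, E08 and E09 and 19.9, 15.2, 15.3 and 4.14 RPM at E13, E14, E16 and E17. Every late day lay below every early one (13.6 ± 6.69 against 181 ± 51.3 RPM, SD, n = 4 and 3 days, log2 difference -3.76 ± 0.48, limma adjusted p = 0.00128). CLDN7, a claudin of many epithelia that binds EPCAM, was 16.4, 10.1 and 26.1 RPM before and 3.85, 3.75, 0.821 and 1.75 RPM after (log2 difference -2.41 ± 0.62, limma adjusted p = 0.0242). CLDN3 was 83.2, 79.3 and 54.5 RPM before and 35.1, 7.29, 38.2 and 6.28 RPM after (log2 difference -2.08 ± 0.63, limma adjusted p = 0.0451). The ranges of CLDN7 and CLDN3 did not overlap either on these days, nor did those of CLDN12, which was not called (limma adjusted p = 0.0749). The share of all genes without overlap is not given here. With means of 3 cells or more, which add E06, neither the CLDN7 nor the CLDN3 call remained (CLDN7 log2 difference -1.71, limma adjusted p = 0.159, and CLDN3 -1.16, 0.410). At a gate of 25 RPM the adjusted p was 0.105 for CLDN7 and 0.257 for CLDN3, and at 100 RPM it was 0.150 for CLDN3.

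CLDN10 had 0 reads in the 65 early cells of the GATA3 gate and 11.4, 6.36, 12.2 and 19.3 RPM on the 4 late days, a mean of 12.3 ± 5.32 RPM (limma adjusted p = 0.00565). Against a floor of 3 reads in a cell of median depth, 1.406 RPM, that is at least 8.75-fold higher. The overlapping gene DZIP1 was also higher, with 60.4 RPM after and 2.48 RPM before (log2 difference 4.15 ± 0.41, limma adjusted p = 0.00044504), so reads of DZIP1 and CLDN10 cannot be told apart here. CLDN1 had 4 reads in 2 of the 65 early cells and 107.3, 3.44, 20.504 and 3.96 RPM on the late days (limma adjusted p = 0.0348). The E13 mean of CLDN1 stood far above the others. Its cells with title code MS132 averaged 125.4 RPM (8 cells) and those with MS130 averaged 4.92 RPM (6 cells). The E13 mean of 107.3 RPM covers 35 cells, and those of other title codes are not broken down here. In all, 5 of 11 members tested were called in this gate, 2 higher and 3 lower, against 17.8% of all genes (10.5% higher and 7.32% lower), and the median log2 difference was 0.062 over the 11 and 0.026 over all genes. CLDN10 and CLDN1 reached the 10 RPM of the filter only on late days, and CLDN7 only on early days. These genes were thus tested because of the days where they were high, which limits what the count shows.

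The CLDN4 call held without any single day. The CLDN7 call was lost without E07 (limma adjusted p = 0.0885), E08 (0.0585), E09 (0.119) or E16 (0.0522), the CLDN3 call without E07 (0.128), E08 (0.131), E09 (0.0698), E14 (0.0814) or E17 (0.101), and the CLDN1 call without E07 (0.0807), E08 (0.0978) or E09 (0.0772). Without E13 or without E16 CLDN1 was not among the genes tested, and its call was also lost with a pseudocount of 10 RPM (log2 difference 1.51, limma adjusted p = 0.127), with quantile normalization (0.062) and at a gate of 25 RPM (0.0625). When only cells of the GATA3 gate that passed no other gate were used, CLDN4 missed the threshold (0.057), and with log2 values averaged over cells CLDN10 did (0.0766). Within title code MS132 (16 late and 8 early cells), CLDN4 was 21.7 against 247 RPM, CLDN7 2.73 against 21.5, CLDN3 76.99 against 123.5, CLDN1 64 against 0 and CLDN10 7.51 against 0 RPM. Of the 2 title codes that could be compared, CLDN4, CLDN7 and CLDN3 were lower and CLDN1 was higher in 2. CLDN10 was higher in 1 and did not differ in the other. The markers of the gate moved as well. The summed trophectoderm markers had a median of 7925 RPM before and 1694 RPM after implantation, and the summed mesenchyme markers 101.975 and 2093 RPM. Their part in the claudin differences was not tested.

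In the GATA4 gate, CLDN4 was also lower after implantation, and CLDN1 and GJC1 were higher. CLDN4 was 75.2, 14.6 and 71.9 RPM at E07, E08 and E09 and 1.11, 4.57, 4.44 and 0.442 RPM at E13, E14, E16 and E17 (log2 difference -3.83 ± 0.74, limma adjusted p = 0.00796). CLDN1 was 0, 0.411 and 0.038 RPM before and 77.1, 18.9, 20.528 and 2.83 RPM after (log2 difference 4.06 ± 0.93, limma adjusted p = 0.0152). GJC1 was 28.3, 30.4 and 31.1 RPM before and 60.5, 49.8, 90.4 and 53.04 RPM after (log2 difference 1.02 ± 0.29, limma adjusted p = 0.0351). For these 3 genes no late day overlapped an early one. The same held for CLDN3 and CLDN11, which were not called (limma adjusted p = 0.127 and 0.180). How many of all genes lacked overlap in this gate is not given here, so the lack of overlap is not read as a trait of the members. The called genes were 3 of 9 members tested, 2 higher and 1 lower, against 18.8% of all genes (10.2% higher and 8.64% lower). The median log2 difference was -0.122 over the 9 and -0.007 over all genes. CLDN1 reached the 10 RPM of the filter only on late days and CLDN4 only on early days, so each was tested because of the days where it was high.

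Leaving out E07 (limma adjusted p = 0.0517) or E09 (0.0511) ended the CLDN1 call in the GATA4 gate, as did a pseudocount of 10 RPM (0.0543). Leaving out E07 (0.0982), E08 (0.104), E09 (0.0859), E13 (0.057) or E16 (0.0949) ended the GJC1 call, and edgeR gave GJC1 an adjusted p of 0.0574. With log2 values averaged over cells the GJC1 difference was 0.45 (limma adjusted p = 0.540), and in cells of the GATA4 gate alone the adjusted p was 0.431. Within title code MS133 (6 late and 25 early cells), CLDN4 was 0.612 against 12.7 RPM, CLDN1 85.6 against 0.534 and GJC1 70.2 against 32.7 RPM. GJA1 means were 925 ± 460 RPM after and 1399 ± 172 RPM before (limma adjusted p = 0.183). The summed hypoblast and endoderm markers of the gate had a median of 4273 RPM before and 800 RPM after, and the mesenchyme markers 98.2 and 2844 RPM. Their part in these differences was not tested.

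**Figure D3:**
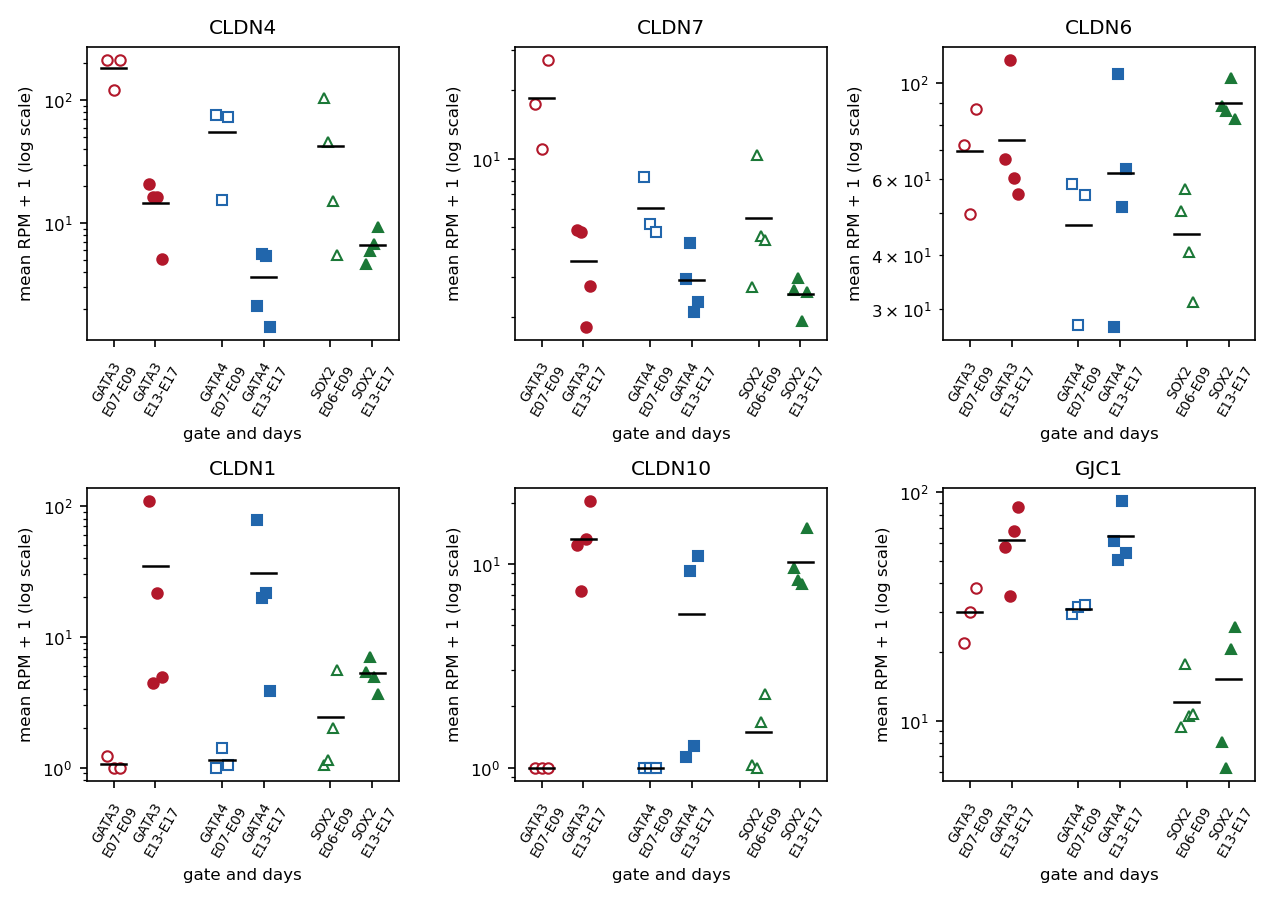
Level of CLDN4, CLDN7, CLDN6, CLDN1, CLDN10 and GJC1 in the GATA3, GATA4 and SOX2 gates before (open) and after (filled) implantation, as RPM + 1 on a log axis; each point is the mean of 1 day and bars are means over days. CLDN4 is lower after implantation in the GATA3 and GATA4 gates, and CLDN6 is higher in the SOX2 gate.

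In the SOX2 gate, CLDN6 was the only member called, and it rose. It was 49.6, 55.9, 39.7 and 30.2 RPM at E06, E07, E08 and E09 and 87.5, 85.2, 101.6 and 81.6 RPM at E13, E14, E16 and E17. The late days all lay above the early ones (log2 difference 1.04 ± 0.22, limma adjusted p = 0.0035), and the call held in all 17 alternatives run. All late cells of the gate held 10 RPM or more of CLDN6, and 60 of the 65 early cells did. Within title codes CLDN6 was 76.9 against 44.4 RPM (MS126, 32 late and 14 early cells) and 97.9 against 40.3 RPM (MS132, 14 and 4 cells). CLDN6 was 1 of 7 members called, against 37.7% of all genes (17% higher and 20.7% lower), so the members' share lay below the background, and the median log2 difference was 0.132 over the 7 and -0.092 over all genes. CLDN4 was 103.5, 44.6, 14.3 and 4.53 RPM at E06, E07, E08 and E09 and averaged 5.65 ± 1.93 RPM after implantation, but the before-after difference did not pass (limma adjusted p = 0.0541). CLDN10 was not among the 7 members tested here, because too few of its day means reached 10 RPM. It averaged 6.94 to 14.1 RPM on the late days of this gate, and 0 cells before implantation reached 10 RPM of it. The summed epiblast markers had a median of 4034 RPM before and 4921 RPM after, and the trophectoderm markers 2383 and 216.7 RPM. Whether they bear on CLDN6 was not tested.

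A test of whether a gate's effect differed between the stages, added after the data were seen, called no member. For CLDN6 in the SOX2 gate the change was 1.51 ± 0.37 (limma adjusted p = 0.124), for CLDN4 in the GATA3 gate -2.21 ± 0.84 (0.272) and for GJA1 in the GATA4 gate -0.69 ± 0.23 (0.192). The shares of all genes called in the GATA3, GATA4 and SOX2 gates were 0.683%, 1.49% and 0.237%.

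ESCs were compared with the SOX2 gate after implantation, the embryo class that shares the epiblast markers with them. Limma called 0 of 10 members and 3.52% of all genes (1.6% higher and 1.91% lower), and edgeR called 0 members. The unadjusted limma p was under 0.05 for 2 of the 10 members and for 1748 of the 10039 genes tested. GJC1 was 37.9 RPM in 656BTAG, 32.2 in CMK6 and 129.35 in CMK9, and 5.25 to 24.9 RPM on the 4 days of the gate. The log2 difference was 2.11 ± 0.56 (limma adjusted p = 0.0554). The groups did not overlap for GJC1, nor for CLDN11 and CLDN6, and limma called none of these genes. Without the share of all genes that lacked overlap, which is not given here, no difference is read from it. CLDN11 means were 1.48 RPM in ESCs and 7.87 RPM in the gate (limma adjusted p = 0.137). Among rarer members, CLDN19 averaged 16.7 RPM in CMK6, 6.67 in CMK9 and 0.63 in 656BTAG, and CLDN10 averaged 18.7 RPM in 656BTAG, 9.53 in CMK9 and 2.27 in CMK6. No line was high for both.

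The culture and gonad comparisons followed the members along the germ line, from ESCs to PGCLCs and to gonadal germ cells. Here GJA1 gave the widest separation. It was 355, 804 and 836 RPM in 656BTAG, CMK6 and CMK9 ESCs, 559 and 144.1 RPM in GK15 and aRB27 PGCLCs, and 0, 17.1, 1.66 and 4.75 RPM in gonadal cells of E36, E43, E50 and E51. The gonadal days lay far below every culture. GJA1 was lower in gonadal cells than in ESCs (log2 difference -7.25 ± 0.77, limma adjusted p = 2.88e-05) and lower than in PGCLCs (log2 difference -6.13 ± 0.87, limma adjusted p = 0.000944). Both calls held in all 15 alternatives run. The difference between PGCLCs and ESCs did not pass (352 ± 294 and 665 ± 269 RPM, limma adjusted p = 0.484), and within title code MS168, which holds the PGCLCs and the 656BTAG ESCs, the means were 352 and 355 RPM.

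Cell by cell, GJA1 was under 10 RPM in 20 of 25 gonadal cells, in 13 of 540 embryo cells, in 0 of 28 ESCs, which allows up to 10.7%, and in 0 of 12 PGCLCs, which allows up to 25%. All 5 gonadal cells at 10 RPM or more were among the 10 with soma markers, whose mean was 73.9 RPM, against 0.625 RPM in the other 15. Without those 10 cells the log2 difference from ESCs was -8.79 (limma adjusted p = 1.79e-05). The single E47 cell held 604.15 RPM of GJA1 and 5 soma markers. Among gonadal cells of title code MS132, which also holds 3 ESCs, GJA1 was 12.9 RPM in 4 cells against 802 RPM.

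GJC1 stayed measurable where GJA1 was low. It was 32.5, 69.5, 66.9 and 56.5 RPM at E36, E43, E50 and E51, 18.3 and 44.6 RPM in GK15 and aRB27 PGCLCs, and 37.9, 32.2 and 129.35 RPM in the ESC lines. These groups overlapped and no difference passed (limma adjusted p = 0.997 for gonadal cells against ESCs, 0.336 and 0.401 for the other two). GJC1 reached 10 RPM in 22 of 25 gonadal cells, 20 of 28 ESCs and 5 of 12 PGCLCs. It exceeded GJA1 in 24 of 25 gonadal cells, 15 of 540 embryo cells, 1 of 28 ESCs and 1 of 12 PGCLCs. As a share of summed connexin RPM, GJA1 held 0%, 18.7%, 1.93% and 6.55% at E36, E43, E50 and E51, and GJC1 held between 76.2% and all of it. In the single E47 cell GJA1 held 96.2% of a summed 628 RPM, and with that cell included the gonadal shares were 32.4% for GJA1 and 59.1% for GJC1. In ESCs GJA1 held 91.2% and GJC1 7.75%. The mean summed connexin level was 32.5, 91.2, 86.3 and 72.4 RPM on those 4 gonadal days and 750 ± 362 RPM in ESCs (SD over cells). The level of 10 RPM was also reached by GJA3 in 3 gonadal cells and by GJA4 in 2.

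**Figure D4:**
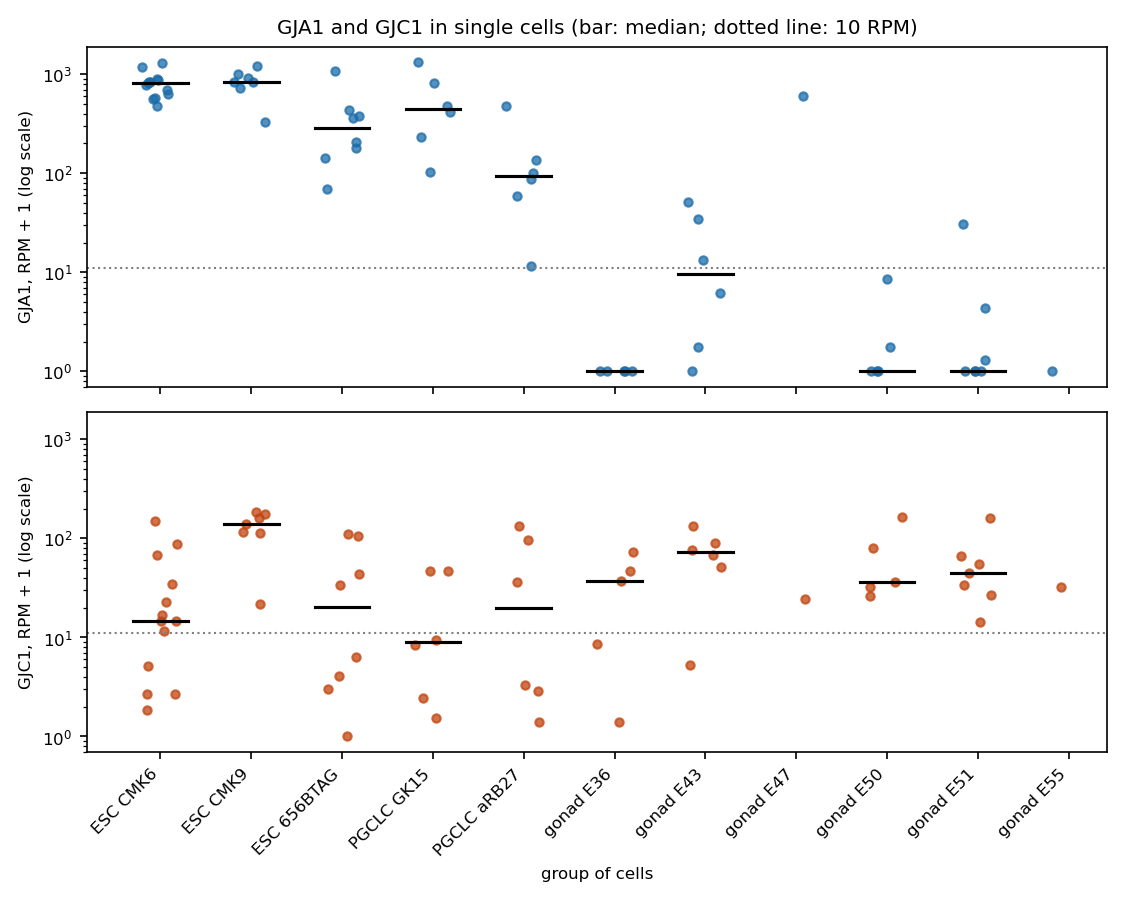
GJA1 and GJC1 in each ESC, PGCLC and gonadal cell, as RPM + 1 on a log axis; columns are ESC lines, PGCLC media and gonadal days, bars are medians and the dotted line marks 10 RPM. GJA1 lies under the line in 20 of 25 gonadal cells, while GJC1 lies above it in 22.

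Among claudins, CLDN6 and CLDN12 were lower in gonadal cells than in ESCs. CLDN6 was 69.7, 74.3 and 57.2 RPM in 656BTAG, CMK6 and CMK9 and 1.13, 9.89, 28.6 and 6.90 RPM at E36, E43, E50 and E51 (log2 difference -2.98 ± 0.71, limma adjusted p = 0.00851). The 2 PGCLC means of CLDN6, 36.4 and 48.995 RPM, lay between those ranges, and their difference from gonadal cells did not pass (limma adjusted p = 0.0718). CLDN12 was 56.4, 70.9 and 45.7 RPM in the ESC lines, 6.59 and 9.77 RPM in the PGCLC media and 20.7, 18.4, 4.40 and 6.95 RPM on the gonadal days. The E36 mean came from a single cell at 103.52 RPM, which held 7 soma markers, and the other E36 cells were at 0. CLDN12 was lower than in ESCs both in gonadal cells (log2 difference -2.32 ± 0.62, limma adjusted p = 0.0156) and in PGCLCs (log2 difference -2.68 ± 0.74, limma adjusted p = 0.0309). In all, 3 of 8 members tested were lower in gonadal cells than in ESCs (20.8% of all genes called, 10.7% higher and 10.1% lower). GJA1 alone was lower in gonadal cells than in PGCLCs (12.4% of all genes called, 7.45% higher and 4.95% lower), and CLDN12 alone in PGCLCs against ESCs (11.1%, with 4.97% higher and 6.1% lower). None of the 8 was called higher in these 3 comparisons. The median log2 differences of the 8 were -1.09, -0.485 and -0.766, and those of all genes -0.031, 0.142 and -0.174.

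The CLDN6 call was kept in all 15 alternatives run. The CLDN12 call of gonadal cells against ESCs was lost without CMK6 (limma adjusted p = 0.0873), without 656BTAG (0.0511) and without the gonadal cells with soma markers (0.0563). That of PGCLCs against ESCs was lost without CMK6 (0.130), CMK9 (0.0824), 656BTAG (0.0639), GK15 (0.142) or aRB27 (0.0640), and with edgeR (0.0585). CDK14, which overlaps CLDN12, moved the same way, with 0.29 RPM in PGCLCs and 34.4 RPM in ESCs (log2 difference -4.72 ± 1.12, limma adjusted p = 0.0148) and 5.41 RPM in gonadal cells (log2 difference -3.36 ± 0.94, limma adjusted p = 0.0202), so CLDN12 and CDK14 reads cannot be told apart in these comparisons. CLDN11 was 0, 23.7, 21.2 and 15.3 RPM at E36, E43, E50 and E51 and 1.48 ± 1.22 RPM in ESCs, a difference that did not pass (limma adjusted p = 0.177), although CLDN11 held 21.4% of the summed claudin RPM of gonadal cells and 0.861% of that of ESCs. CLDN1 averaged 8.15 ± 6.79 RPM in gonadal and 0.889 RPM in ESC means (limma adjusted p = 0.214), and its 3 gonadal cells at 10 RPM were all among those with soma markers. CLDN3 averaged 21.7 RPM in GK15 PGCLCs, where 2 cells held 99.18 and 31.04 RPM and the others 0, and 0.098 RPM in aRB27 PGCLCs. CLDN7 reached 10 RPM in 0 of 25 gonadal cells, which allows up to 12%, and CLDN4 in 0 of 12 PGCLCs, which allows up to 25%.

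Over the 18 groups of at least 5 cells, the members most alike in their log2 mean levels were CLDN19 and GJD3 (Pearson r = 0.915), GJD2 and CLDN9 (0.902), GJA1 and CLDN6 (0.869) and CLDN4 and CLDN7 (0.804). These values describe groups that share libraries and dissections and carry no test. GJD3, GJD2 and CLDN9 reached 10 RPM in only 10, 7 and 5 cells, so the pairs with these genes rest on few cells. CLDN19 and GJD3 reached that level together in 1 embryo cell.

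The claudins' partners were followed with a list of tight junction genes, of which 21 to 23 were tested in each comparison. Tight junctions also contain occludin (OCLN), the scaffold protein cingulin (CGN) and the adhesion protein F11R, and EPCAM stabilises claudins at the membrane. In the GATA3 gate after against before implantation, 1 of 22 rose and 6 fell, where 17.8% of all genes were called (10.5% higher and 7.32% lower). Among those that fell, OCLN was 124.3 RPM before and 38.2 RPM after (limma adjusted p = 0.0424), and CGN was 59.8 and 17.8 RPM (0.0202). AMOTL1 was the member that rose, from 25 to 83 RPM. In the GATA4 gate 1 of 22 rose and 7 fell, where 18.8% of all genes were called (10.2% higher and 8.64% lower), with EPCAM at 801 and 218.5 RPM (limma adjusted p = 0.00212), F11R at 321 and 74.7 RPM (0.0163) and OCLN at 92.2 and 27.8 RPM (0.0145). In the SOX2 gate 2 of 21 rose and 6 fell, a share near the 37.7% of all genes called there (17% higher and 20.7% lower). EPCAM fell from 638 to 180 RPM (limma adjusted p = 1.58e-05), while LSR, an organiser of tricellular junctions, rose from 48.4 ± 6.02 to 96.2 ± 1.18 RPM (0.00106). The median log2 differences of the list were -0.581, -0.748 and -0.279 in the 3 gates, where those of all genes were 0.026, -0.007 and -0.092.

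Against the other cells of the day, 2 of 23 tight junction partners were higher in the GATA3 gate (2.57% of all genes called, 1.34% higher), among them AMOTL2 (120 and 62.9 RPM, limma adjusted p = 0.0201). In the GATA4 gate 5 of 23 were higher (5.92% of all genes called, 3.13% higher), among them AMOT (64.4 and 15.6 RPM, limma adjusted p = 0.0196) and AMOTL2 (125.4 and 64.7 RPM, 0.0125), and in the SOX2 gate 4 of 23 were lower (7.68% of all genes called, 4.39% lower), namely AMOT, AMOTL2, PARD6B and MPP5. The COL3A1 gate had 0 of 22 called by limma, where 0.0549% of all genes were. In gonadal cells against ESCs, where 20.8% of all genes were called (10.7% higher and 10.1% lower), 1 of 21 was higher, AMOT (70.8 and 5.85 RPM, limma adjusted p = 0.00129), and 5 were lower, with MAGI1 at 17.3 and 106.8 RPM (0.00235), PARD3 at 11.1 and 64.6 RPM (0.0113), AMOTL2 at 6.98 and 44 RPM (0.0141) and F11R at 48.9 and 240 RPM (0.034). In PGCLCs against ESCs, where 11.1% were called (4.97% higher and 6.1% lower), 1 of 21 was higher, ESAM (84.7 and 9.57 RPM, limma adjusted p = 0.0353), and 6 were lower, among them AMOTL1 (6.88 and 151.9 RPM, 0.00419), MPP5 (5.87 and 49.5 RPM, 0.00725), PARD3 (5.83 and 64.6 RPM, 0.0149) and JAM2 (1.5 and 15.8 RPM, 0.038).

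Adherens junction and desmosome genes anchor cells to each other beside the tight junction. After against before implantation, 0 of 12 rose and 2 fell in the GATA3 gate, 1 of 11 rose and 0 fell in the GATA4 gate, and 1 of 13 rose and 7 fell in the SOX2 gate, where the shares of all genes called were 17.8%, 18.8% and 37.7%. The first 2 counts were thus near or below that background. In the GATA3 gate 3 of 12 were higher than in the other cells (2.57% of all genes called), the desmosomal genes DSP (342 and 130 RPM, limma adjusted p = 0.0154), JUP (230.5 and 103.6 RPM, 0.0214) and DSC2 (95.9 and 47.2 RPM, 0.0255). In the GATA4 gate CDH2, which encodes N-cadherin, was higher (290 ± 132.6 and 31.3 RPM, limma adjusted p = 0.0108) and CDH1, which encodes E-cadherin, was lower (41.4 and 103.4 RPM, 0.0321), among 13 tested (5.92% of all genes called). CDH1 was lower after implantation in the GATA3 gate (29.3 and 211.5 RPM, limma adjusted p = 0.00488) and lower in gonadal cells than in ESCs (1.06 and 26.5 RPM, 0.00912). CDH3, which encodes P-cadherin, was 0.714 RPM in PGCLCs and 62.7 RPM in ESCs (limma adjusted p = 0.000542). In gonadal cells against ESCs, 2 of 12 genes of this list were higher and 1 was lower (20.8% of all genes called). In PGCLCs against ESCs, 1 of 12 was higher and 1 was lower (11.1% of all genes called).

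Of the list of epithelial regulators, 17 were tested in the GATA3 gate against the rest (2.57% of all genes called). There TFAP2A (30.5 and 3.65 RPM), GRHL3 (30.2 and 4.32 RPM), GRHL1 (40.9 and 4.36 RPM) and CDX2 (29.7 and 4.85 RPM) were called higher by limma and OVOL2 (40.9 and 69 RPM) was called lower. Within that gate after implantation (17.8% of all genes called) 4 were lower, among them KLF5 (42.3 and 433 RPM) and KLF4 (12.4 and 230.7 RPM), and 2 were higher, SNAI2 (52.1 and 0.0543 RPM) and ZEB2 (15.8 and 0.0351 RPM), both known repressors of epithelial genes. Of the other gap junction genes, 2 could be tested. PANX1, a channel protein related in form to connexins, was higher after implantation in the GATA3 gate (19.4 ± 9.22 and 3.71 RPM, limma adjusted p = 0.0195), the GATA4 gate (17.6 ± 5.66 and 3.36 RPM, 0.0375) and the SOX2 gate (17.7 ± 2.22 and 5.62 RPM, 0.00908). CNST, which encodes the connexin trafficking protein consortin, was 15.8 RPM in ESCs, 71.2 RPM in PGCLCs (limma adjusted p = 0.0365) and 66.3 RPM in gonadal cells (0.0173).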

How the data were processed

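The authors deposited 1 table of SC3-seq levels in RPM for all cells. The tools named are Cufflinks 2.2.0, TopHat 1.4.1 and cutadapt 1.3, per the submitters' processing notes, which give no roles here; the genome build is not given in the sources used here. Low values are whole multiples of 1 read in 603 cells, and 99.81% of their values came out whole within 0.1 read. No column was left without a sample. Overlaps and neighbours were taken from NCBI RefSeq's table of assembly T2T-MFA8v1.1, in which 40 of the 42 members matched by gene ID.

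Mean RPM over the cells of a line, medium or day (at least 5 cells) was compared as log2(RPM + 1) with limma 3.58.1 (R 4.3.3; genes at 10 RPM or more in at least 2 means; Benjamini-Hochberg adjustment over all genes tested, threshold 0.05), so fold changes of low genes are understated. A gene could pass the filter of 10 RPM through the means of 1 class alone. The stem, PGCLC and gonadal groups shared 1 fit (3, 2 and 4 means), and its 3 comparisons share samples. The gate comparisons shared embryonic day as a block, since both cell classes are taken from the cells of the same day; days, not animals, are the replicates. edgeR 4.0.16 (quasi-likelihood, TMM) on the recovered reads called 750 (PGCLC against ESC), 1646 (gonadal against ESC) and 749 (gonadal against PGCLC) genes, where limma called 1169, 2196 and 1309. The scripts were tested on simulated data. Intervals and the upper limits for counts of 0 (3 counts) cover counting error only. No doublet caller was run.

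Every member at 10 RPM or more in at least 5 cells was named, every called member was given with values, and up to 4 called genes per direction were taken from each partner list. The members and lists were chosen with earlier results of these data known. Some members and partner genes are counted but not reported by name here. Other members are given only by counts or where a sentence needed their level.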

Additional observations from a re-analysis of the deposited data

Results flagged for a closer look

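Of the groups of 4 to 10 line, medium or day means checked, 13 (12.5%) held a mean that stood far from the rest of its group. These groups share days and cells, so no rate by chance is set beside this share. CLDN1 at E13 stood apart in 4 of them: the day mean was 107.307 RPM in the GATA3 gate after implantation, where the other days had 3.443 to 20.504 RPM, and the same 107.307 RPM stood apart among all days of that gate. CLDN1 at E13 was also high in the GATA4 gate (77.144 RPM, other days 0 to 20.528) and outside the SOX2 gate (62.818 RPM, other days 0 to 12.886). CLDN3 at E08 was high outside the GATA3 gate (22.047 RPM, other days 2.814 to 5.86) and in the SOX2 gate (18.587 RPM, other days 3.307 to 6.919). CLDN4 in the SOX2 gate was 103.452 RPM at E06 and 3.672 to 44.646 RPM on the other days. CLDN19 was 19.98 RPM at E14 in the GATA3 gate (other days 0.3 to 5.299) and 11.381 RPM at E17 outside it (other days 0.175 to 3.692).

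CLDN12 at E14 was low in the GATA4 gate after implantation (37.956 RPM, other days 65.492 to 69.97). CLDN11 at E17 in the SOX2 gate was 12.789 RPM (other late days 6.188 to 6.273), and GJC1 at E07 in the same gate was 16.825 RPM (other early days 8.387 to 9.695). CLDN3 in gonadal cells was 2.53 RPM at E51 and 0 on the other 3 days.

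The gonadal days with a single cell entered no comparison. The E47 cell held GJA1 at 604.15 RPM and CLDN12 at 97.91 RPM, and the E55 cell held CLDN11 at 83.98 RPM.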

How the results depend on the processing

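No called member changed direction in any alternative. Counts of called members follow. Without the filter on low means they were 0 for PGCLCs against ESCs (1 in the comparison as reported), 5 for gonadal cells against ESCs (3), 0 for the GATA3 gate (2), 0 for the GATA4 gate (2), and after against before implantation 2 in the GATA3 gate (5), 0 in the GATA4 gate (3) and 4 in the SOX2 gate (1). With edgeR they were 0 for PGCLCs against ESCs, 0 for both the GATA3 and the GATA4 gate and 2 for the SOX2 gate after against before. Quantile normalization gave 0 for PGCLCs against ESCs, 2 for gonadal cells against PGCLCs (1), 1 for ESCs against the SOX2 gate (0), 1 for the SOX2 gate (0) and 2 for the SOX2 gate after against before. Averaging log2 values gave 2 for gonadal cells against PGCLCs, 1 for ESCs against the SOX2 gate, 1 each for the GATA4 and SOX2 gates and 2 for the COL3A1 gate (0). A pseudocount of 10 RPM gave 1 for ESCs against the SOX2 gate and 1 each for the GATA4 and SOX2 gates. A gate at 25 RPM gave 0 for the GATA4 gate, 1 for the SOX2 gate and 2 for the GATA3 gate after against before; a gate at 100 RPM gave 1 for ESCs against the SOX2 gate and 1 each for the GATA4 and SOX2 gates. Cells of 1 gate only gave 0 for the GATA3 and GATA4 gates, 1 for the SOX2 gate and, after against before, 2 in the GATA3 and 1 in the GATA4 gate. Means of 3 cells or more gave 1 for the GATA3 gate, 1 for the SOX2 gate and 3 for the GATA3 gate after against before. Without the gonadal cells with soma markers, 0 members were called for PGCLCs against ESCs. With no replicate block for day, 0 members were called in each of the 4 gates. Leaving out 1 line, medium or day at a time gave 0 to 1 for PGCLCs against ESCs, 2 to 4 for gonadal cells against ESCs, 1 to 3 for gonadal cells against PGCLCs, 0 to 1 for ESCs against the SOX2 gate, 0 to 2, 0 to 1 and 0 to 2 for the GATA3, GATA4 and SOX2 gates, and 2 to 5, 1 to 4 and 1 to 3 for their comparisons across implantation. The COL3A1 gate could not be fitted with cells of that gate alone or with a day left out. Over all genes, the GATA3 gate had 271 calls as reported, 2 with edgeR, 1 without the block and 2 without the filter, the GATA4 gate, with 5.92% of genes called as reported, had 45, 37 and 8, and the SOX2 gate 809, 342, 79 and 29, and the COL3A1 gate 5 as reported and 775 with averaged log2 values. Apart from these constructions (fewer means, more genes tested), the cause was not tested.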
